A study of Rattus norvegicus with 69 samples.

Results

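Rat seminiferous tubules at stage VIIa.b of the cycle were set against tubules at stage VI, the step by which the cycle enters the stages long described as sensitive to androgen. The samples were taken by their titles, 5 at stage VI and 5 at stage VIIa.b, which are 10 of the 69 samples of the series. All were untreated Sprague Dawley rats aged 55 to 60 days with no genetic change named in the labels. Tubules had been dissected under transillumination, 25 segments per rat and stage, and each sample pooled 2 rats. The labels call the samples of a stage independent but do not say whether a pair of rats gave tubules of several stages. RNA was measured on Affymetrix rat arrays, 1 array a sample, and levels are array signals on a linear scale, which were not compared between genes. The other tubule samples were 39 at 8 further stage groups, from rats of the same ages. They served in the same fit and to show the course over the cycle. Isolated cells showed which cells hold a transcript. They were Sertoli cells (4 samples), pachytene spermatocytes (4) and round spermatids (4), all at 55 to 60 days of age. A further group joined spermatogonia with early spermatocytes (3 samples at 18 to 20 days of age, here the spermatogonial group). Whole testis (5 samples, with no age recorded) was a reference for marker genes. The labels give purities of about 85% for Sertoli cells and 85% to 95% for germ cells.

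A tubule is lined by Sertoli cells, somatic cells that hold several generations of germ cells at once: spermatogonia at the base, spermatocytes in meiotic prophase above them, then round spermatids and, at the lumen, elongated spermatids close to release. Which generations lie together changes in a fixed order, the cycle of the seminiferous epithelium. Around stages VI and VII, the last spermatogonial divisions give rise to preleptotene spermatocytes, the round spermatids spread their acrosome over the nucleus, and the elongated spermatids are readied for release at stage VIII. Androgen acts on Sertoli cells, and loss of androgen is known to harm germ cells first at stages VII and VIII.

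Promoters are shown for 4 genes that moved at this step, from RefSeq on the rat assembly GRCr8. Cimap1b and Gstp1 had the largest rise and the largest fall, and Mif and Slc25a25 were higher and lower genes whose window held the full cAMP response element, the site that CREM and CREB bind. The windows searched ran from 250 bases before the transcript start to 50 after. Each line below is 120 bases of it, 5′ to 3′ on the gene's own strand, with capitals for the motif found: GTTGCC, 1 arm of the X-box that RFX factors bind, in Cimap1b and Gstp1, and TGACGTCA in Mif and Slc25a25.
Cimap1b promoter, chr7:122326922-122327041, minus strand: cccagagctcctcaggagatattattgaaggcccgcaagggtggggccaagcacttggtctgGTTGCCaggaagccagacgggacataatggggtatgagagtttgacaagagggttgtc
Gstp1 promoter, chr1:210769706-210769825, minus strand: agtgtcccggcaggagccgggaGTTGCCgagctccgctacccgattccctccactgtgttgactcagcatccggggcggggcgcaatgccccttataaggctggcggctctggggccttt
Mif promoter, chr20:12790237-12790356, plus strand: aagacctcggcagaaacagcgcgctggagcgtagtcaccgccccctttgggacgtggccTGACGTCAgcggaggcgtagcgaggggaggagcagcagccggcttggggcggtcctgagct
Slc25a25 promoter, chr3:36116642-36116761, minus strand: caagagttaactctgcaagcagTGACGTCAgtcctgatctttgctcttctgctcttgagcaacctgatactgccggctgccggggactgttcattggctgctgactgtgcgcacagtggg

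The motifs were counted in all promoters, and differences between the shares were not tested. Of the genes called higher or lower at stage VIIa.b, as defined below, 194 of 229 and 91 of 106 had a promoter in the table, and of all genes tested 9958 of 12003. On either strand, GTTGCC stood in 13.4% of the promoters of higher genes, 15.4% of lower genes and 12.9% of all genes. TGACGTCA, which contains the shorter TGACGT and reads the same on both strands, stood in 2.58%, 2.2% and 3.16%. TGACGT itself stood in 7.73%, 9.89% and 11.2%. AGAACA, a single arm of the androgen response element, stood in 11.3%, 16.5% and 12.8%, and its inverted repeat, AGAACA and TGTTCT 3 bases apart, was in none of the 9958 windows. The sterol element TCACCCCAC stood in 0.515%, 0% and 0.362%. These are matches of letters in 300 bases, not measured sites.

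A gene is called higher or lower here when limma's test between the stages, in a fit of all 49 tubule samples, gave a Benjamini-Hochberg adjusted p under 0.05 over 22258 probe sets and the change was at least 2-fold. Rose and fell are also used of genes that passed the adjusted p with a smaller change, whose fold is then given. Folds are those of the signal plus 5.11, so that they understate the change of dim genes. Means are given ± SD over the 5 samples of a stage. Of the probe sets tested, 482 were called (2.17%), 316 higher (1.42%) and 166 lower (0.746%). With 1 probe set a gene, 335 of 12003 genes were called (2.79%), of which 229 were higher (1.91%) and 106 lower (0.883%). The adjusted p alone was passed by 2123 probe sets (9.54%), 1166 higher (5.24%) and 957 lower (4.3%), and by 1550 genes (12.9%), 834 higher (6.95%) and 716 lower (5.97%). The median change of all genes was 0.017 on the log2 scale. The called genes rose by a median of 2.7-fold and fell by a median of 2.39-fold, and 48 rose but 7 fell at least 4-fold. In 210 of the 229 higher genes every sample of stage VIIa.b lay above every sample of stage VI, and in 85 of the 106 lower genes every one lay below; of all genes tested, 1552 (12.9%) had no overlap. With 43.7 added in place of 5.11, which damps changes of dim genes more, 113 genes were higher and 35 lower.

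**Figure D1:**
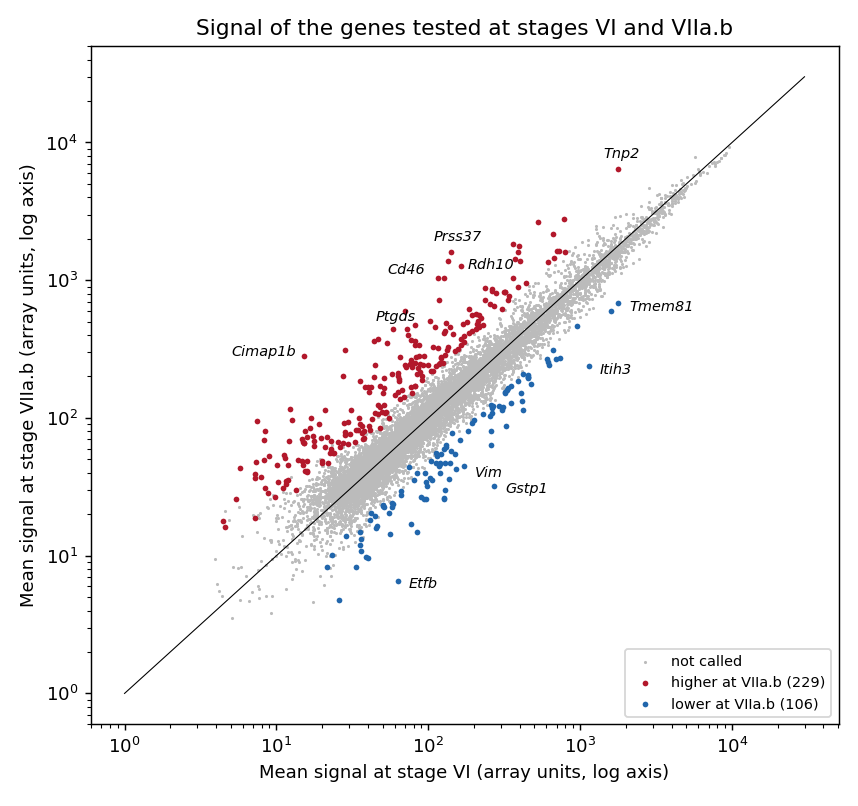
Mean signal of each of the 12003 genes tested at stage VI (x axis) and stage VIIa.b (y axis), both in array units on log axes, with the line of equal signal. The 229 genes called higher lie above the line and the 106 called lower below it, and Cimap1b lies farthest above it among the named genes.

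The 12 largest rises among genes whose samples did not overlap were those of Cimap1b, Prss37, Oxct2b, Ccsap, Cd46, Garin4, C19h16orf74, Top1mt, Fscn3, Rdh10, Zc2hc1b and Srcin1. Each had its highest isolated-cell mean in round spermatids. Cimap1b, of a family of ciliary microtubule proteins, had signals of 4.42, 6.49, 49.2, 3.54 and 12.1 at stage VI and 288, 224, 272, 307 and 316 at stage VIIa.b. It was dim in 4 of the 5 samples of stage VI and bright in all 5 of stage VIIa.b (18.4-fold, adjusted p = 1.45e-15). Prss37, for a protease-like protein that sperm need for fertilisation, had 86.7, 115, 118, 200.1 and 190.5 and then 1513, 1344, 1425, 1723 and 2006. The lowest sample of stage VIIa.b was more than 6 times the highest of stage VI (11.3-fold, adjusted p = 1.91e-12). Oxct2b, for a testis enzyme of ketone body use, had 61.3, 189, 109.6, 157 and 151 and then 1452, 1243, 1249, 1425 and 1546 (10.6-fold, adjusted p = 6.46e-13). Fscn3, the testis form of the actin-bundling protein fascin, had 88.2, 129.8, 124, 128 and 160.1 and then 1111, 991, 937, 1029 and 1084 (8.01-fold, adjusted p = 3.84e-20). Both stages were tight for this gene, and the gap between them was many times the spread within either. The remaining rises in this set ran from 7.67-fold (Srcin1) to 9.91-fold (Ccsap, for a protein of centrioles and cilia). A weaker probe set did not pass for Prss37 (log2 change 0.82), Srcin1 (-0.05) and Ccsap (0.81 and 0.39).

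**Figure D2:**
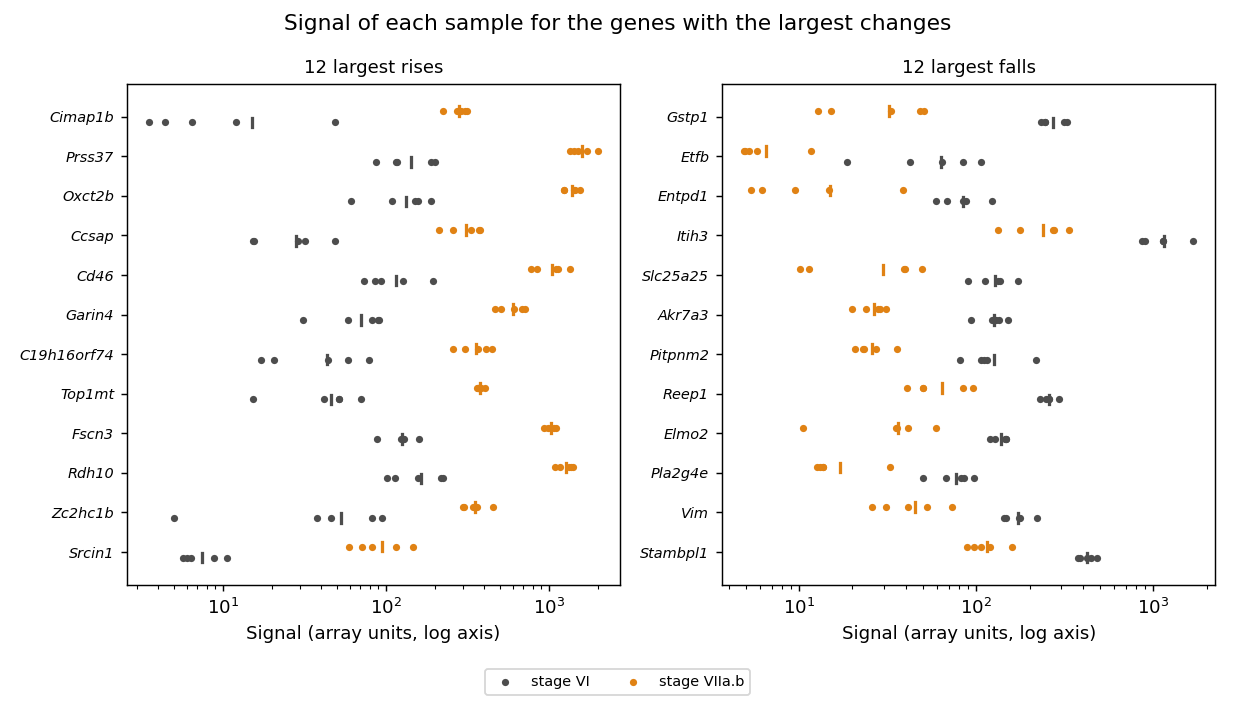
Signal of each sample (array units, log axis) for the 12 largest rises (left) and the 12 largest falls (right), with stage VI in grey, stage VIIa.b in orange and a short bar at each mean of 5 samples. The groups do not overlap for any of these genes, which is how they were chosen, and the means lie farthest apart for Cimap1b.

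Complement regulators on cell surfaces, singled out after their values were seen, moved in both directions. Cd46, a membrane cofactor protein that in rodents is found on the sperm acrosome, had 73.6, 94, 85.6, 196 and 127 at stage VI and 1348, 849.9, 777, 1101 and 1140 at stage VIIa.b (9.05-fold, adjusted p = 8.67e-19). Cd55, the decay-accelerating factor, had 128, 102, 124, 154 and 76.3 and then 949.5, 568, 567, 738 and 777 (5.99-fold, adjusted p = 4.06e-20). Their isolated-cell means were highest in round spermatids, 344 for Cd46 and 446 for Cd55, against 24.5 and 32.6 in Sertoli cells. Cd59b, which blocks the membrane attack complex, went the other way, from 657, 759.8, 721, 568 and 604 to 289, 397, 346, 285 and 236 (2.13-fold lower, adjusted p = 8.29e-08). It was highest in Sertoli cells, at 2235. No sample of the earlier stage overlapped the later in any of the 3 genes.

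Among genes that pack the spermatid's DNA, Prm2 and Tnp2 rose, while Prm1 and Tnp1 did not pass in the fit of all stages. Of 10 genes tested on this list, 2 were called higher (20%, beside 2.79% of all genes called). Of the rest, 1 rose less than 2-fold and none fell, and the list's median log2 change was 0.28. Prm2, for protamine 2, had 249, 374, 505, 410.4 and 258 at stage VI and 1368, 1981, 2246, 1720.1 and 1839 at stage VIIa.b (5.15-fold, adjusted p = 5.03e-14). Tnp2, for transition protein 2, went from 1768 ± 337 to 6433 ± 308 (3.68-fold, adjusted p = 2.95e-07), with 1340.2 to 2201 in the samples of stage VI and 5978 to 6792 in those of stage VIIa.b. Tnp1 had 5744 ± 864 and 7804 ± 664 and did not pass (log2 change 0.45, adjusted p = 0.286). Its samples did not overlap, and in limma's fit of the 10 samples alone it passed (adjusted p = 0.00888). Prm1 had 9585 ± 1011 and 9321 ± 933 (-0.04, adjusted p = 0.964), with a sign that turned under other settings. The difference between Prm2 and Prm1 or Tnp2 and Tnp1 was not tested. Hspa4l, for a chaperone of the testis, rose 1.51-fold. The rise of Prm2 was steeper than the mean of the steps on either side by 1.77 on the log2 scale (adjusted p = 0.000138), and that of Tnp2 by 1.12, which did not pass (adjusted p = 0.32).

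Of 18 acrosome genes tested, 4 fell less than 2-fold (22.2%, beside 12.9% of all genes that passed the adjusted p in either direction) and none was called, where 2.79% of all genes were. Their median was -0.17. Lyzl6, a lysozyme-like gene, fell from 1367 ± 96.9 to 773 ± 70.2 (1.77-fold), Zpbp2, for a zona-binding protein, 1.52-fold, and Acrbp and Adam2 1.32-fold and 1.3-fold. Spam1, for the sperm hyaluronidase, had 2713 ± 226 and 1761 ± 124 with no overlap, and did not pass in the fit of all stages (adjusted p = 0.234), but did with the 10 samples alone (5.02e-05). Acrv1 had 2562 ± 187 and 2292 ± 179.5 (adjusted p = 0.75). Of 34 flagellum genes, none was called and 4 fell (11.8%, near the 12.9% of all genes that passed in either direction). These were Tbata, Tekt4, Catsperz and Tekt3, by 1.18-fold to 1.47-fold, and the list's median was -0.12. Among 17 spermatid regulators of transcription and RNA, none was called, and 3 passed the adjusted p (17.6%, beside 12.9% of all genes). Gmcl1 rose 1.56-fold, and Tdrd7 and Tbpl1 fell 1.51-fold and 1.49-fold. Crem, for the cAMP-responsive factor of round spermatids, had 1132 ± 147 and 1088 ± 87.1 (adjusted p = 0.892), while 1 of its 4 other tested probe sets, a dim one, was called higher (log2 change 1.09) and another fell (-0.50).

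Further higher genes were singled out after their values were seen. Prkar2a, for a regulatory subunit of protein kinase A that is anchored in the sperm tail, had 97.6, 92.3, 58.5, 86.1 and 76.1 at stage VI and 446, 448, 495, 489 and 482 at stage VIIa.b (5.54-fold, adjusted p = 5.36e-23). Its mean was 1261 at stage I and 82.1 at stage VI, the lowest of the 10 stage groups. Tuba8, for an alpha tubulin, rose from 369.7 ± 93.1 to 1425 ± 139 (3.9-fold), and was 853 in round spermatids and 649 in pachytene spermatocytes. Cdkn2b, for a cell cycle inhibitor, rose from 63.3 ± 35.7 to 212 ± 40.6 (3.65-fold), and was 122 and 102 in those cells. Bmp8a, for a growth factor made by germ cells, rose from 28 ± 6.17 to 91.4 ± 17.2 (2.92-fold), had its highest mean at stage VIIa.b itself, and was 44.6 and 33.8 in them. Asns, for asparagine synthetase, was highest in isolated Sertoli cells (1147) but also present in round spermatids (647), and rose from 263 ± 36.4 to 841 ± 96.3 (3.17-fold).

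The 12 largest falls were those of Gstp1, Etfb, Entpd1, Itih3, Slc25a25, Akr7a3, Pitpnm2, Reep1, Elmo2, Pla2g4e, Vim and Stambpl1. Gstp1, for a glutathione transferase, had 233, 324, 245, 243 and 313 at stage VI and 33.1, 48.4, 12.8, 50.4 and 15.2 at stage VIIa.b (8.22-fold lower, adjusted p = 5.64e-13). Its fall was steeper than the flanking steps by 2.77 on the log2 scale (adjusted p = 1.71e-05), and its mean stayed under 33 until stage VIII and was 248 at stages IX-XI. In isolated cells it was 1162 in Sertoli cells and 515 in the spermatogonial group, against 12.3 and 10.5 in the later germ cells. Itih3, for a heavy chain of the inter-alpha-trypsin inhibitor, had 1673, 1139, 1127, 861 and 897 and then 271, 273, 334, 176 and 133 (4.82-fold lower, adjusted p = 1.25e-06), and was highest in round spermatids, at 1016. Etfb, for the electron transfer flavoprotein, had a mean above 43.7 at stage VI alone (63.2 ± 34.6). Its samples there scattered widely, with 18.6, 107, 84, 42.1 and 64.4, of which 18.6 and 42.1 lay under 43.7. It met the filter of 3 samples above 43.7 through stage VI alone, so that its test rests on the group where it is high. It had 5.21, 4.9, 11.7, 4.98 and 5.77 at stage VIIa.b and means of 3.49 to 7.73 at the other 8 stage groups, near the constant added. Entpd1 (an ecto-nucleotidase), Slc25a25 (a mitochondrial carrier), Akr7a3 (an aldehyde reductase) and Pitpnm2 (a lipid transfer protein) fell 4.07-fold to 5.07-fold, and the others 3.61-fold to 3.95-fold. A weaker probe set did not pass for Pitpnm2 (-0.03) and Elmo2 (0.23).

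Sertoli cell genes moved in both directions. Of 16 genes tested on the fixed list of Sertoli markers, Vim was called lower (6.25%, beside 2.79% of all genes called). Inha fell and Shbg and Cldn11 rose less than 2-fold, and 12 did not pass. Vim, for the filament protein vimentin, had 221, 176, 148, 174 and 144 at stage VI and 53, 73.4, 31.1, 25.8 and 41 at stage VIIa.b (3.72-fold lower, adjusted p = 4.88e-10). Vim was as high in the spermatogonial group (2549.8) as in Sertoli cells (2592). That group also held signal of the Sertoli markers Cldn11 (911) and Shbg (479.8), though little of the Sertoli gene Prnd (2.62). These means therefore do not tell which cells give the Vim signal of the tubule. Inha, for the inhibin alpha subunit, fell from 195 ± 32.4 to 111 ± 10.4 (1.71-fold). Shbg, for androgen-binding protein, had 152, 114, 141, 125 and 174 and then 345, 252, 202, 288 and 292 (1.91-fold, adjusted p = 2.76e-08). It passed 2-fold when stage VI replicate 5 (log2 change 1.01) or stage VIIa.b replicate 3 (1.04) was left out. Ctsl, for a lysosomal protease of Sertoli cells, had 1960.2 ± 248 and 2021 ± 98.3 (adjusted p = 0.907), and Prnd, for a prion-like protein, 1284 ± 213 and 1881 ± 118 (adjusted p = 0.447). The samples of Prnd did not overlap, and with the 10 samples alone it passed (adjusted p = 0.00193). Inhbb, for an inhibin beta subunit, was dim at both stages, 11.1 ± 8.61 and 13.1 ± 9.38. A drop in the number of cells of a type and a drop in RNA per cell cannot be told apart in these pools.

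Genes that were at least 4-fold higher in isolated Sertoli cells than in each germ cell group were found in both directions, 14 of the 229 higher genes (6.11%) and 15 of the 106 lower genes (14.2%), beside 1.79% of all genes. The genes named here were chosen after their values were seen. Ptgds, for the lipocalin-type prostaglandin D synthase, had 60.8, 74.7, 73.4, 70.4 and 86.4 at stage VI and 411, 381, 345, 437 and 410.2 at stage VIIa.b (5.15-fold, adjusted p = 2.26e-21). Its mean in isolated Sertoli cells was 1337, against 11.4 to 22.4 in the germ cells. Fstl3, for a secreted activin-binding protein, had 32.6, 19.6, 6.6, 7.75 and 28.3 and then 104, 50.3, 61.1, 92.2 and 148 (4.17-fold, adjusted p = 2.81e-07). Lcn2, for an iron-siderophore lipocalin, rose from 71.8 ± 18.1 to 234 ± 31.8 (3.16-fold), P2rx2, for an ATP-gated channel, from 50.6 ± 7.96 to 152 ± 26.6 (2.82-fold), and Cxcr4, for the receptor of CXCL12, from 20.1 ± 13.9 to 47.2 ± 4.81 (2.39-fold). Reep1, for a protein that shapes the endoplasmic reticulum, had 294, 230, 258, 256 and 246 and then 50, 95.3, 84.2, 50.3 and 40.7 (3.95-fold lower, adjusted p = 4.89e-10). Creg1, for a secreted glycoprotein, had 660.2, 655, 584, 568 and 663 and then 276, 244, 226, 213 and 247 (2.57-fold lower, adjusted p = 4.24e-13), and its mean was highest at stage VI of all stage groups. Dcx, for the microtubule protein doublecortin, fell from 254 ± 59.3 to 103 ± 14.3 (2.36-fold, adjusted p = 0.0278) and was again highest at stage VI. Creg1 and Dcx thus left their peak at this step, while Reep1 had means of 405 at stage I, 20.9 at stage VIIc.d and 480.2 at stages XIII-XIV.

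Ndrg1 and Per1 were called among genes known to answer to androgen or to follicle-stimulating hormone, which acts on Sertoli cells through cAMP. Of 11 androgen-response genes tested, Ndrg1 was called higher (9.09%, beside 2.79% of all genes), Gpd1 rose 1.5-fold and Tpd52l1 fell 1.87-fold, with a median of 0.34. Ndrg1, a stress- and differentiation-linked gene, had 85, 86.4, 82.5, 96.3 and 121 at stage VI and 347, 252, 229.5, 257 and 334 at stage VIIa.b (2.9-fold, adjusted p = 8.26e-05), and its second probe set was called as well (log2 change 1.77). It stayed high through stage VIII, at 371 and 369, and was 147 at stages IX-XI. Rhox5, an androgen-driven homeobox gene of Sertoli cells, had 12.4, 27.1, 94.4, 55.4 and 74.8 and then 47.3, 48.4, 60.6, 67.5 and 59.5, which overlap (log2 change 0.34, adjusted p = 0.78). Its probe set was dim in isolated cells and no higher in Sertoli cells (43) than in pachytene spermatocytes (44.8) or round spermatids (40.4). Fshr, for the receptor of follicle-stimulating hormone, and the retinoid target Stra8 were not analysed here. Of 16 genes linked to follicle-stimulating hormone or cAMP, Per1 was called higher (6.25%, beside 2.79% of all genes called). Rgs2 and Dusp1 rose 1.57-fold and 1.64-fold, and Inha fell. Per1, a clock gene with cAMP response elements, had 101, 25.4, 32.6, 135 and 98.8 and then 276, 314, 193, 203 and 181 (3.29-fold, adjusted p = 0.00172). Its levels varied widely at stage VI, yet all lay under the lowest of stage VIIa.b. None of 14 genes for steroid and thyroid hormone receptors and enzymes passed limma's adjusted p, where 12.9% of all genes did, and their median was 0. With so few genes, this count says little.

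In the retinoid pathway, Rdh10, for the first oxidation step, rose, and Aldh1a3 and Aldh1a1, for the second, fell. Of 18 genes tested, 1 was called in each direction (11.1% in both, beside 2.79% of all genes). Stra6 also rose, Aldh1a1 and Cyp26b1 also fell, and 13 did not pass. The median was 0.03. Rdh10, for a dehydrogenase that turns retinol into retinal, had 102, 158, 114, 219.9 and 225 at stage VI and 1375, 1166, 1100.1, 1415 and 1327 at stage VIIa.b (7.95-fold, adjusted p = 3.31e-19). The rise was steeper than the flanking steps by 2.1 on the log2 scale (adjusted p = 6.42e-07). In isolated cells Rdh10 was 706 in round spermatids, 302 in the spermatogonial group and 240.1 in Sertoli cells, and a second, dim probe set did not pass (-0.35). Aldh1a3, for an enzyme that turns retinal into retinoic acid, had 184, 197, 194, 171 and 169 and then 89.7, 107, 85, 69.7 and 51 (2.25-fold lower, adjusted p = 3.46e-06), and Aldh1a1, for another, fell 1.54-fold. Unlike Rdh10, Aldh1a3 had its highest isolated-cell mean in the spermatogonial group (622) and Aldh1a1 in Sertoli cells (1509). Cyp26b1, for an enzyme that degrades retinoic acid, fell from 475 ± 108 to 324 ± 30.7 (1.44-fold). Stra6, for a retinol receptor at the cell membrane, rose from 68.5 ± 24.8 to 129 ± 23.3 (1.92-fold, adjusted p = 0.00161).

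Of 20 genes of junctions and the blood-testis barrier, the seal between Sertoli cells, 2 were called higher and none lower. The calls made up 10% of the list, beside 2.79% of all genes. Gja1 (connexin 43) and Cldn11 (claudin 11) rose 1.4-fold and 1.3-fold, and Ctnna1 (alpha catenin) fell 1.38-fold. The median was 0.11. F11r, for the junctional adhesion molecule A, had 86.7, 89.7, 96.1, 99.9 and 52 at stage VI and 201, 176, 188, 236 and 245 at stage VIIa.b (2.41-fold, adjusted p = 1.02e-10). Nectin2, for a partner of the nectins on spermatids, had 56.5, 20.7, 41, 8.91 and 56.1 and then 78.4, 97.4, 64.8, 113 and 81.4 (2.5-fold, adjusted p = 0.000686). It missed 2-fold without stage VI replicate 4 (log2 change 0.98), and a second probe set did not pass (0.72). Outside the list, and chosen after their values were seen, Epcam, for an epithelial adhesion molecule, rose from 64.8 ± 14.6 to 276 ± 28.1 (4.07-fold, adjusted p = 6.9e-16) and Jup, for plakoglobin, from 43.7 ± 17.9 to 199 ± 47.1 (4.34-fold, adjusted p = 3.33e-06). Jup had its highest isolated-cell mean in Sertoli cells (285), while Epcam was 113 to 178 in the 4 cell groups and reached 642 at stage VIII.

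Of 26 genes for proteases and their inhibitors, 3 were called higher and none lower (11.5%, beside 2.79% of all genes). The median was 0.07. Cst8, for a cystatin of the reproductive tract, had 468, 758, 819, 601 and 661 at stage VI and 2565, 1945, 1995, 2171 and 2069 at stage VIIa.b (3.27-fold, adjusted p = 1.29e-12), and was highest in round spermatids (1244). Plau, for the urokinase-type plasminogen activator, a secreted Sertoli cell protease, had 51, 35.5, 73.3, 68.9 and 90.7 and then 175, 202, 179, 210.1 and 169 (2.89-fold, adjusted p = 0.0023), with a second probe set called too (log2 change 1.29). Its course was a plateau, 187 to 207 at stages VIIa.b and VIIc.d, 174 at VIII and 46.3 to 66.3 at the other stage groups. Mmp9, for a matrix metalloprotease, was dim and overlapped, with 31.2, 24.4, 15.8, 2.1 and 4.23 and then 34.3, 55.6, 36, 53.8 and 25.5. Its call was lost without stage VI replicate 4 (adjusted p = 0.083) or 5 (0.0637). Timp2, Spint2 and Ctsh rose 1.35-fold to 1.47-fold, and Cst9l fell 1.26-fold. Of 21 lysosome and phagocytosis genes none was called, where 2.79% of all genes were. Gas6 and Mfge8, whose products mark cells for uptake, fell 1.66-fold and 1.33-fold, and the list's median was -0.23. Of 14 immediate early and heat shock genes none was called either. Dusp1 rose 1.64-fold and Klf4 fell 1.45-fold.

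Among 25 genes of glucose and lactate use, 3 were called higher and none lower (12%, beside 2.79% of all genes). The median was -0.06. Slc2a3, for the glucose transporter GLUT3 of germ cells, had 255, 360.4, 337, 326 and 323 at stage VI and 741, 747, 797, 934 and 887 at stage VIIa.b (2.55-fold, adjusted p = 3.74e-11), with both probe sets called. Pfkfb4, for the testis form of the enzyme that sets fructose 2,6-bisphosphate, rose from 339 ± 90.3 to 769 ± 99 (2.31-fold, adjusted p = 1.35e-06), while a weaker probe set did not pass (-0.19). Pdk1, for a kinase that slows pyruvate dehydrogenase, had 4.57 ± 1.45 and 16.1 ± 10.1. These signals were near the constant added, and the call was lost without stage VI replicate 2 (adjusted p = 0.0615), stage VIIa.b replicate 1 (0.122) or stage VIIa.b replicate 4 (0.0957). Pfkfb1 and Pdha2 rose 1.55-fold and 1.36-fold, and Ldhb and Pfkp fell 1.25-fold and 1.24-fold. Of 22 cholesterol genes none was called, where 2.79% of all genes were. Acat2, Srebf1 and Fdps rose 1.92-fold, 1.63-fold and 1.49-fold. Sqle and Cyp51 did not pass limma's test (adjusted p = 0.274 and 0.241), although with the 10 samples alone both did, as lower (0.0152 and 0.00229). Fdps, for the enzyme that makes farnesyl diphosphate, had 1646, 2134, 2294, 1994 and 2015 and then 3073, 2848, 3011, 3066 and 3004.

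Carrier and iron proteins gave 1 call and 3 further rises among 13 genes, and growth factors and cytokines 1 call among 23. The calls were 7.69% and 4.35% of these lists, beside 2.79% of all genes. Fabp3, for a fatty acid carrier, had 110, 80.2, 64.8, 95 and 104 at stage VI and 249, 183, 198, 199 and 186 at stage VIIa.b (2.19-fold, adjusted p = 1.27e-06), and beside Shbg, Scp2 and Tfrc (the transferrin receptor) rose 1.46-fold and 1.39-fold. Mif, for a cytokine whose promoter is printed above, had 366, 448, 379, 475 and 545 and then 979.5, 855, 781, 1082 and 1057 (2.14-fold, adjusted p = 1.57e-06). Prok2, for prokineticin 2, rose 1.99-fold, and Il1a, for interleukin 1 alpha, had 87.8 ± 34.9 and 61.2 ± 20.5 (adjusted p = 0.256).

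Genes of DNA replication that passed the test all rose. They were 7 of 31 tested, beside 6.95% of all genes, and the median was 0.15. The 7 were Pola2, Rrm1, Ccne1, Ccne2, Rfc3, Pold2 and Gins4. Pola2 alone was called (3.23% of the list, beside 2.79% of all genes), at dim signals of 8.77 ± 2.77 and 28.3 ± 10.2. Ccne1, for cyclin E1, which opens S phase, had 132, 155, 169, 203 and 193 at stage VI and 298, 276, 204, 331 and 319 at stage VIIa.b (1.65-fold, adjusted p = 0.000334). The isolated-cell mean was highest in pachytene spermatocytes for Pola2, Ccne2, Pold2 and Gins4, in the spermatogonial group for Rrm1 and Rfc3, and in round spermatids for Ccne1. Of 31 genes of G2 and M phase 6 rose and 5 fell (35.5% in both directions, beside 12.9% of all genes), and none was called. Cdca8, Aurkc, Cks2, Kif2c, Racgap1 and Ect2 rose, Cks2 by 1.53-fold, and Plk1, Bub1, Ccnb2, Kif20a and Cenpf fell 1.32-fold to 1.92-fold. Round spermatids had the highest isolated-cell mean for Kif2c, Plk1, Bub1 and Ccnb2, and the spermatogonial group for Racgap1 and Cenpf. For Cdca8, Aurkc, Cks2, Ect2 and Kif20a it was highest in pachytene spermatocytes. Plk1, for polo-like kinase 1, had 370, 342, 294, 302 and 277 and then 129, 201, 190.1, 144 and 155.

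Gfra1, Mlh3 and Mns1 were called among spermatogonial and meiotic genes, 1 of 12, 1 of 14 and 1 of 14 on their lists (8.33%, 7.14% and 7.14%, beside 2.79% of all genes). Gfra1, for the receptor of the stem cell factor GDNF, was called higher, with 113, 104, 94.8, 77.5 and 109 at stage VI and 254, 169, 266, 262 and 256 at stage VIIa.b (2.35-fold, adjusted p = 0.000368). This probe set was highest in isolated round spermatids (158, against 58.2 in the spermatogonial group), and a second one did not pass (-0.12). Kit, for the receptor of stem cell factor, had 18.3 ± 9.43 and 26.2 ± 17.2 (adjusted p = 0.746). Of 14 genes of recombination and the synaptonemal complex, Mlh3 was called higher at 2.02-fold and Tex15 and Smc1b fell 1.64-fold and 1.21-fold. Mlh3 went from 40.7 ± 5.83 to 87.9 ± 14.8 and missed 2-fold without stage VI replicate 1 or 3 or stage VIIa.b replicate 1, 3 or 4 (log2 changes 0.955 to 0.995), and a second probe set did not pass (-0.37). Of 14 pachytene genes, Mns1 was called lower at 2.02-fold, from 318 ± 69.8 to 155 ± 36, with overlap, and missed 2-fold without stage VI replicate 2, 3, 4 or 5 or stage VIIa.b replicate 2 or 4, with a log2 change of -0.90 for the last. Tdrd1 rose 1.49-fold, and Ccna1, Tbpl1 and Adam2 fell 1.68-fold, 1.49-fold and 1.3-fold.

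Over all 26 lists, 22 of 414 genes tested were called (5.31%), beside 2.79% of all genes. The lists were chosen with results of these data in view, and the 2 shares were not compared by a test.

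**Figure D3:**
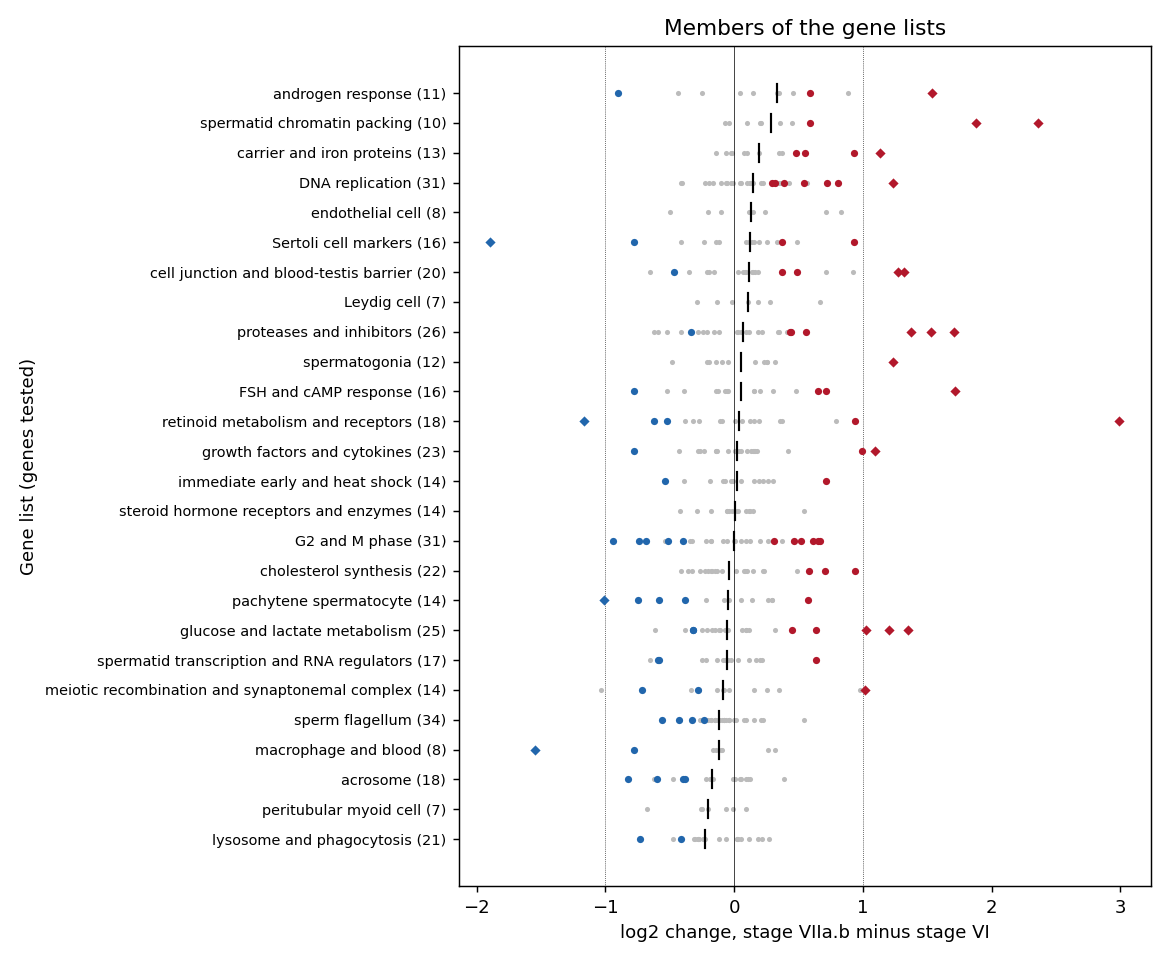
Log2 change from stage VI to stage VIIa.b of every tested member of the 26 lists (1 row a list, tested members in brackets). Grey points did not pass the adjusted p, red and blue circles rose or fell by less than 2-fold, diamonds were called, and bars mark list medians, which lie between -0.23 and 0.34.

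Samples outside the comparison were also examined. Stage VIIc.d against stage IV-V, the next stage group on either side, uses no sample of the comparison. There, 228 of the 229 higher genes were again higher and 209 (91.3%) were called, beside 5.43% of all genes called higher, and 105 of the 106 lower genes were again lower and 88 (83%) called, beside 4.49%. None was called in the opposite direction. At stage VIIc.d, replicates 2 and 3 stood apart in the 3' to 5' ratio of the GAPDH controls, a sign of RNA quality (1.78 and 2.05 against 1.17 to 1.35). Without them the numbers called were 205 and 90. Against the mean of the steps on either side, which share samples with it, the step was steeper by limma's adjusted p in 99 of the higher and 20 of the lower genes. Over all genes the adjusted p was passed upward by 132 (1.1%) and downward by 44 (0.367%), and 98 (0.816%) also differed by at least 1 on the log2 scale, 76 upward (0.633%) and 22 downward (0.183%). The members were chosen on the same step, so that these counts are a description.

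Genes chosen as higher at this step have little room to peak at VI or be lowest at VIIa.b, and the reverse holds for lower genes. The peaks of all genes were not counted, so that the numbers below are a description. Of the higher genes, most peaked after stage VIIa.b. They had their highest mean at stage VIII (78 genes), VIIc.d (68), IX-XI (48) or VIIa.b (23), and 12 elsewhere, and their lowest most often at IV-V (74), VI (60) or II-III (55). The lower genes peaked at IV-V (43), VI (21) or II-III (17). Their lowest means were spread over VIIc.d (26), XII (23), VIIa.b (20), IX-XI (15), VIII (11) and XIII-XIV (11). At the next step, which shares the stage VIIa.b samples, 31 higher and 13 lower genes were called in the same direction. Over all 22258 probe sets, 137 were called higher and 112 lower there. Lca5, for a ciliary protein, and the small membrane protein gene Smim3 turned back. At the step before, which shares the stage VI samples, 20 higher genes had been called higher, and Ccno, Leng1, Krt10 and Etfb had been called in the opposite direction. Over all probe sets, 63 were called higher and 41 lower at that step. As samples are shared, the counts at both steps are a description. Ccno, for a cyclin-like protein of multiciliated cells, passed through a trough, with means of 91 at stage IV-V, 5.42 at VI, 25.9 at VIIa.b and 408 at IX-XI.

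**Figure D4:**
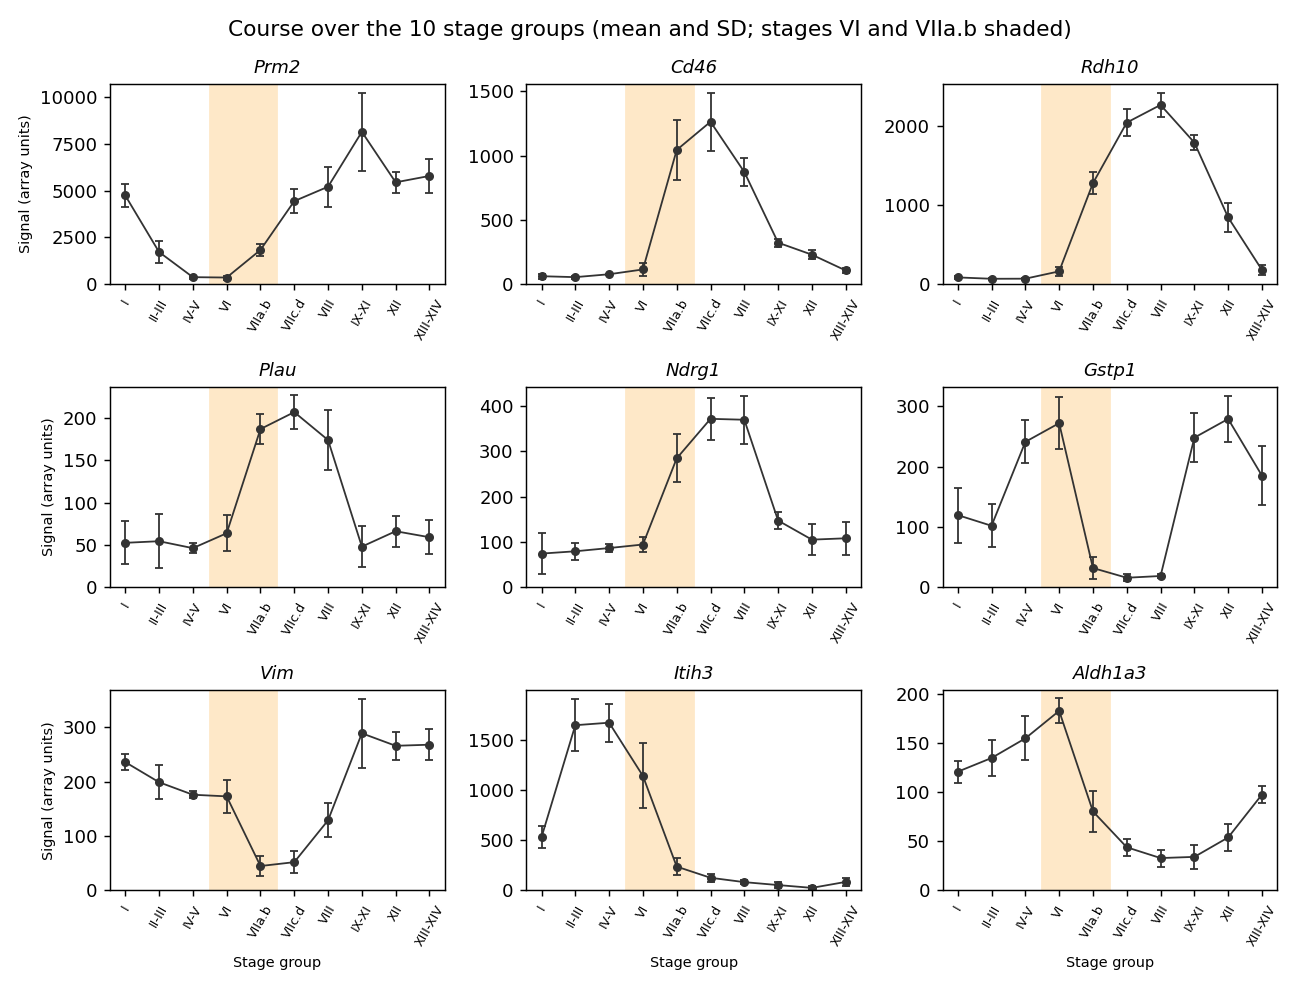
Mean signal ± SD (array units, linear axes starting at 0) of 9 called genes over the 10 stage groups, with 5 samples a group and 4 at stage IV-V, and stages VI and VIIa.b shaded. Prm2 climbed on to 8135 at stages IX-XI, Cd46, Rdh10, Plau and Ndrg1 peaked at VIIc.d or VIII, Gstp1 and Vim dipped and came back by IX-XI, and Itih3 and Aldh1a3 stayed low at VIIc.d to IX-XI.

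The isolated cells, which the comparison did not use, place the genes as follows. Of the 229 higher genes, 118 (51.5%) had their highest mean in round spermatids, beside 29.4% of all genes tested, and 61 (26.6%) in Sertoli cells, beside 21.6%. Of the 106 lower genes, 49 (46.2%) were highest in Sertoli cells and 46 (43.4%) in round spermatids. Pachytene spermatocytes were highest for 25 higher genes (10.9%) and 1 lower gene (0.943%), beside 21.3% of all genes. Genes at least 4-fold higher in round spermatids than in each other group made up 32 of the higher (14%) and 16 of the lower genes (15.1%), beside 2.63% of all genes, and those so enriched in Sertoli cells 14 (6.11%) and 15 (14.2%), beside 1.79%. At 8-fold the round spermatid numbers were 1 of the 229 higher and 4 of the 106 lower genes, beside 56 of all 12003. The share of the higher genes was then near that of all genes. These shares are a description and were not tested. Beside them, the GAPDH 3' to 5' ratio was 1.75 to 2.44 in round spermatids and 1 to 1.21 in Sertoli cells, and its part in the shares was not tested. Spermatids past the round stage were not among the isolated cells, and 18 higher (7.86%) and 2 lower genes (1.89%) were under 43.7 in all 4 groups, beside 9.37% of all genes.

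**Figure D5:**
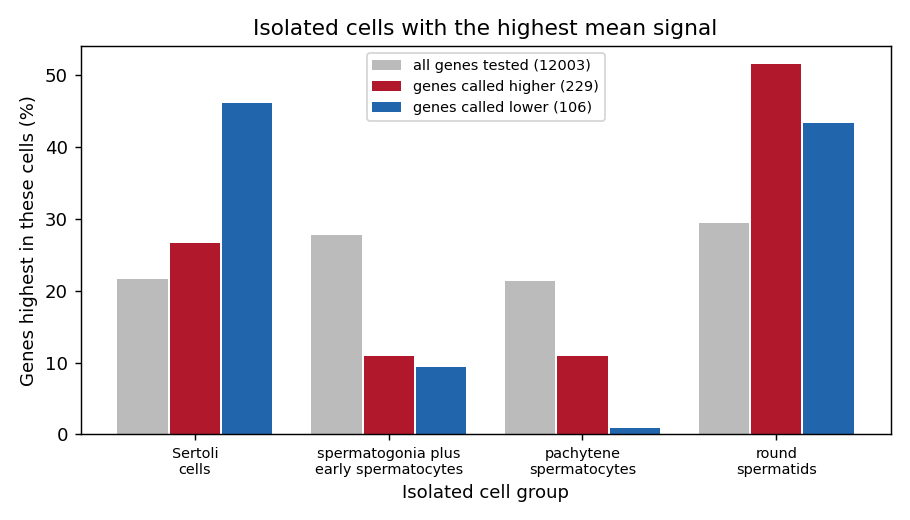
Share of genes (y axis, percent) with their highest mean signal in each of the 4 isolated cell groups (x axis), for all 12003 genes tested, the 229 called higher and the 106 called lower. Round spermatids hold 51.5% of the higher genes, Sertoli cells hold 46.2% of the lower ones, and pachytene spermatocytes hold 0.943% of the lower ones.

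The arrays of both stages were alike in quality. Their median signals were 43.4 to 47.5, the GAPDH ratios 0.937 to 1.25 at stage VI and 0.97 to 1.19 at stage VIIa.b, and the actin ratios 1.74 to 2.25 and 1.67 to 1.96. Correlations over probe sets were 0.915 to 0.932 among stage VI arrays, 0.921 to 0.948 among stage VIIa.b arrays and 0.893 to 0.924 across. Of the markers of cells in the tubule, the Sertoli list (17 measured) summed to 5872 to 6333 at stage VI and 6293 to 6810.3 at stage VIIa.b. The acrosome list (18) summed to 26377 to 28817 and then 23516 to 25544, which did not overlap, and the pachytene list (14) to 24002 to 26509 and 22157 to 24781. Markers of cells outside the tubule epithelium differed in their levels. Far under whole testis were the Leydig genes Cyp17a1 (5.9 and 7.65 against 588) and Insl3 (56.7 and 67 against 896), and the globin gene Hbb (32.6 and 22.2 against 330.3). Closer to it were the Leydig gene Cyp11a1 (87.1 and 79.5 against 209) and the peritubular genes Acta2 (188 and 199 against 335) and Myh11 (214 and 205 against 269). Other genes of these lists were above whole testis, such as Fdx1 (892 and 1011 against 573), Aif1 (2065 and 2466 against 1566), the macrophage gene Csf1r (74.1 and 67.5 against 66.7) and the endothelial gene Flt1 (83.9 and 90.1 against 40.9). None of 7 Leydig, 7 peritubular and 8 endothelial genes passed the adjusted p, where 12.9% of all genes did. The summed Leydig markers (11 measured) were 1131 to 1405 at stage VI and 1346 to 1484 at stage VIIa.b, most of it Fdx1, and macrophage and blood ones (13) were 2358 to 2817 and 2719 to 3047, most of it Aif1, so that these sums do not measure those cells. Peritubular markers (10) were 837 to 1022 and 754 to 940.4, and endothelial ones (10) 299.6 to 473 and 344 to 464. The part of these sums in the results was not tested. Of 8 macrophage and blood genes tested, 2 passed the adjusted p (25%, beside 12.9% of all genes). Alas2, for haem synthesis, was called lower (120 ± 16.9 to 39.9 ± 15.8, 2.93-fold) and Mrc1 fell 1.71-fold. Both were highest in isolated Sertoli cells, Alas2 by 8.88-fold over the next group.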

How the data were processed

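Per the submitters' processing notes, MAS5 was named, with no version. The deposited table holds 1 signal intensity per probe set and array, on a linear scale, and the authors had scaled each array: its mean without the outer 2% at each end was 100. Per the labels, cRNA came from 6 µg of RNA. Of 31099 probe sets, 57 controls were left out. Depth has no counterpart on arrays, and the number of arrays limits the precision. No detection calls were used.

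Log2 of the signal plus 5.11 (the table's 10th percentile) was fitted with limma 3.58.1 in R 4.3.3 (eBayes with trend), over 10 stages and 49 samples. Probe sets above 43.7 (the table's median) in at least 3 samples were tested, two-sided, with Benjamini-Hochberg adjustment. A gene was represented by its brightest probe set; 20826 probe sets named 1 gene in the platform's annotation, updated through RefSeq, and others were left out of gene counts. Of 86 called genes with other tested probe sets (117 in all), 18 of these were called the same way, none the opposite way and 99 not called. Names ending in s_at or a_at, as for Prss37, Srcin1 and Crem, can match several transcripts.

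Named were the 12 largest rises and falls without overlap, up to 4 called genes of each list, 19 set genes (1 of them not reported here), and genes said to be chosen after their values were seen. The members and lists were chosen with earlier results of these data known. p-values of the main fit rest on the spread between pools of 2 rats within all its stage groups, not within stages VI and VIIa.b alone. That spread takes in stages where a gene was dim or scattered, such as stage I for Prnd (12.7 ± 12). At stages IX-XI, Spam1 had 47.8 ± 39 and Tnp1 15021 ± 7329. Prnd, Spam1 and Tnp1 did not pass in the main fit but did in the fit of stages VI and VIIa.b alone. Alternatives were other constants, filters, normalizations, weights, a replicate block and left-out samples.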

Additional observations from a re-analysis of the deposited data

Results flagged for a closer look

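In 9 of 116 groups of 5 samples, 1 sample lay farther from the others than Dixon's 95% critical value of 0.71 allows, and chance alone does so in about 1 group in 20. At stage VI, Cimap1b had 49.2 in replicate 3 (others 3.54 to 12.1), Pitpnm2 218 in replicate 1 (others 81.1 to 115) and F11r 52 in replicate 5 (others 86.7 to 99.9). At stage VIIa.b, Etfb had 11.7 and Entpd1 38.5 in replicate 3 (others 4.9 to 5.77 and 5.38 to 14.8), Pla2g4e 32.4 and Gfra1 169 in replicate 2 (others 12.6 to 13.7 and 254 to 266), and Fabp3 249 and Prnd 2088 in replicate 1 (others 183 to 199 and 1804 to 1857). Of these 9 genes, 8 were called and none lost its call when the sample that stood apart was left out.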

How the results depend on the processing

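Of 44 named genes that were called, 32 kept direction and call in every one of the 22 alternatives that tested them, and none reversed. Etfb, 1 of the 32, was tested in 21 of the alternatives, as the stricter filter left it out. Adding 43.7 in place of 5.11 moved the counts most: 179 probe sets were called (133 higher, 46 lower), 148 genes (113 and 35), 11 list genes, 60 genes in the comparison with the flanking steps and 147 genes again at VIIc.d against IV-V (297 with 5.11). It also took the call from Pla2g4e, Pola2, Fabp3, Nectin2, F11r, Pdk1, Alas2, Mlh3, Mns1, Mmp9, Aldh1a3 and Gfra1. Leaving out 1 sample gave 432 to 504 probe sets. Enrichment in isolated cells at 2-fold and 8-fold gave 68 and 1 higher and 26 and 4 lower genes for round spermatids, and 28 and 5 higher and 34 and 8 lower genes for Sertoli cells. Of all 12003 genes tested, 837 and 56 were so enriched in round spermatids, and 729 and 53 in Sertoli cells. Signs turned in genes that had not passed: Prm1 with quantile normalization (0.069), and, when 1 sample was left out, Prm1 (-0.092 to 0.017), Ctsl (-0.027 to 0.095), Rhox5 (-0.034 to 0.594), Crem (-0.092 to 0.021) and Inhbb (-0.081 to 0.406). The cause was not tested. Whether the replicate numbers pair the samples is not known, and the main fit did not pair them. Same-numbered samples of both stages had correlations of deviations of 0.19, 0.09, 0.066, 0.052 and 0.062. Of these samples, 8 of 10 were closest to their own number. Over all stages the mean correlation was 0.057 for the same number and -0.014 for different numbers, a hint of pairing. With a replicate block, 494 probe sets were called, 484 in the 10 samples alone, where Pdk1 lost its call. Of genes under 2-fold that had not passed, Prnd, Tnp1, Spam1, Sqle and Cyp51 passed the adjusted p in both fits of the 10 samples, Prnd also with 43.7 added, Tnp1 with quantile normalization and Il1a without stage VI replicate 4. The fit without replicates 2 and 3 of stage VIIc.d was added after seeing the data. Contrasts with other stages could not be run on the 10 samples alone. Dim genes near background are the least certain, as no detection calls were used.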
